A study of Mus musculus with 6 samples.

Results

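A total of 2952 peaks of the ATAC-seq table, 3.91% of all 75412 peaks and 8.37% of the 35279 peaks that carried a gene, had a pseudogene as their annotated gene. They were chosen by the biotype in the deposited annotation, which had to contain the word pseudogene, a rule that uses no measured value. Together they named 1981 different pseudogenes, and 117 of the peaks lay on chromosome 18. The peak centre was 4 to 10827 bp from the annotated start of the pseudogene, with a median of 4854 bp.

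ATAC-seq, which maps accessible DNA by the insertion of sequencing adapters with the Tn5 transposase, was done on muscle stem cells (MuSCs) taken directly from adult C57BL/6 mice and used without culture. Cells carrying SCA1, CD45 or CD31 were depleted, and MuSCs were sorted by integrin alpha7 or a Pax7 reporter. The 3 control libraries came from control mice, which in the study's breeding also carried the floxed alleles, and the 3 Taf4a sKO libraries from Pax7CreERT/Taf4a flox/flox mice given tamoxifen, with 1 library per biological replicate. Cre was driven by Pax7, which marks MuSCs, so other cells kept the gene. Taf4a encodes a subunit of TFIID, the complex that binds core promoters and starts transcription by RNA polymerase II. The table held the reads in each peak, scaled to a common depth by the authors and rounded, here called normalized counts. They summed over all peaks to 37722015, 35226223 and 42803315 in control and to 44311913, 41661725 and 41948821 in Taf4a sKO libraries.

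The labels were first checked against the targeted gene, which the annotation lists as Taf4. The peak over its exon 12, one of the floxed exons, had 65, 78 and 137 normalized counts in control and 44, 22 and 25 in Taf4a sKO libraries (limma log2 change -1.58, SE 0.30, adjusted p = 3.4e-04). The fall was not confined to the floxed part, since the peak over exon 7 went from 268 ± 29.5 to 150 ± 13.2 (SD, n = 3; log2 change -0.83, adjusted p = 1.4e-04). Of the remaining peaks, one inside the gene but over no exon fell (-0.49, adjusted p = 0.027) and one 3331 bp from the start rose (0.55, adjusted p = 0.0030). The peak at its promoter had 2226 ± 201 (SD, n = 3) and 2108 ± 14.8 (SD, n = 3), a difference that did not pass the test (adjusted p = 0.59). Of 10 MuSC markers 10 had a peak, among them Pax7 with 3404 and Myf5 with 2111 normalized counts on average at their highest peak. By limma Pax7 and Chrdl2 fell (log2 changes -0.32 and -0.42, adjusted p = 0.030 and 0.0040), Itga7 and Myod1 rose (0.45 and 0.29, adjusted p = 0.0017 and 0.028), and the other 6 did not pass the test. Of 6 haematopoietic markers 2 had one, Cd68 with 185, which fell (limma log2 change -0.84, adjusted p = 3.7e-04), and Csf1r with 350, which rose (0.90, adjusted p = 1.0e-04), and Ptprc, Itgam and Cd3e had none. Peaks were also found at 4 of 5 endothelial markers, where Tek was highest with 1438 and rose (0.40, adjusted p = 0.010), at 3 of 4 mesenchymal markers, where Dpt was highest with 2903 and Col15a1 rose (0.44, adjusted p = 0.0017), and at 4 of 4 muscle fibre markers, where Mylpf was highest with 4472 and Acta1 fell (-0.37, adjusted p = 0.018). The other markers of these 3 groups with a peak did not pass the test, among them Myh4 of the fibre markers with a log2 change of 0.48 (adjusted p = 0.057). Some of these peaks lay far from the start of their gene, at 8036 bp for Csf1r, 9814 bp for Acta1, 8013 bp for Pecam1 and 10189 bp for Cdh5. Others lay near it, at 80 bp for Cd68, 62 bp for Tek and 252 bp for Col15a1. The highest peaks of the haematopoietic markers summed to 393, 457 and 604 in control and 590, 528 and 636 in Taf4a sKO libraries, and those of the endothelial markers to 1514, 1312 and 1845 and to 1993, 1992 and 1888. The sums were 4782, 4399 and 5337 against 5907, 5497 and 5446 for the mesenchymal markers, 5554, 4969 and 6357 against 6429, 5644 and 5448 for the fibre markers, and 21674, 18498 and 23038 against 22347, 19610 and 20496 for the MuSC markers. Each Taf4a sKO library was above each control library for the sums of the endothelial and mesenchymal markers, and the genotypes overlapped for the other groups. Of the single markers in these 2 groups, this held only for Tek and for Col15a1. At Pecam1, Cdh5, Kdr, Pdgfra and Dpt the genotypes overlapped. The part of other cell types in the differences described here was not tested. In bulk samples a peak that changes in every cell cannot be told apart from a change in the share of cells that carry it.

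Pseudogenes are copies or remnants of genes that no longer encode a working protein. Processed pseudogenes arose when a spliced mRNA was copied back into the genome, so as a rule they lack introns and the promoter of the gene they came from, and abundant mRNAs such as those of ribosomal proteins left many of them. Unprocessed pseudogenes are decayed duplicates that may have kept their promoter, unitary pseudogenes have no working copy left in the species, and polymorphic pseudogenes are disabled in the reference strain but intact in others. Because a processed pseudogene often sits far from any promoter, a peak can take its name only because no other gene start is nearer.

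The sequences below show what such regions look like. They are the central 300 bases of the pair of gained and the pair of lost peaks with the smallest p, and of the peak at the start of H2-K2, shown as a strong peak over the start of a transcribed unprocessed pseudogene. All are from the plus strand of GRCm38 (mm10), 5′ to 3′. Capitals mark the letters CCAAT (the NF-Y box), TGANTCA (AP-1) and CAGCTG (an E-box of the myogenic factors) on either strand, so that CCAAT also appears as ATTGG. The windows are chr1:14858680-14858979 (Rpl5-ps1), chr1:164493146-164493445 (Gm37732), chr10:111127318-111127617 (Rpl6l), chr6:29963591-29963890 (Gm13725) and chr17:33978613-33978912 (H2-K2).
Rpl5-ps1: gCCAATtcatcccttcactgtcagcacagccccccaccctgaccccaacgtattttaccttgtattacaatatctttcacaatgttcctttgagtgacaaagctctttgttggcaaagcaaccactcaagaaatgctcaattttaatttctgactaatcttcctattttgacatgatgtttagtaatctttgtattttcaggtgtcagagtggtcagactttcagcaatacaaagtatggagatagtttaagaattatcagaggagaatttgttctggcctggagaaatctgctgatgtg
Gm37732: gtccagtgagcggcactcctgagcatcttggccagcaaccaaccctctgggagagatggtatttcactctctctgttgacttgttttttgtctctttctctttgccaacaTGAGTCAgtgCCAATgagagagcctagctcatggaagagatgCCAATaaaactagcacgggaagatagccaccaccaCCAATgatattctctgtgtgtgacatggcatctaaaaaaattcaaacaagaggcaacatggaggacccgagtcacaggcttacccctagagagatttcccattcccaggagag
Rpl6l: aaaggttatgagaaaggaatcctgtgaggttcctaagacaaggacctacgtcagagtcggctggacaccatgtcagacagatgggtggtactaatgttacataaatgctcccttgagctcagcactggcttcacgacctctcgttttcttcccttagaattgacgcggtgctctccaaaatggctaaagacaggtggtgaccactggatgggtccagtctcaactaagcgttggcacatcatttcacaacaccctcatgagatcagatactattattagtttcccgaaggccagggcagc
Gm13725: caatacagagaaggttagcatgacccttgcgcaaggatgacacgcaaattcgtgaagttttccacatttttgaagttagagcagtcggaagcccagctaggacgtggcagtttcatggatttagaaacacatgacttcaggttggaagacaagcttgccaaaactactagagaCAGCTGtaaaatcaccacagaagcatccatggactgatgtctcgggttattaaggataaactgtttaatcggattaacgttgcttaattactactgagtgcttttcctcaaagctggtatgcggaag
H2-K2: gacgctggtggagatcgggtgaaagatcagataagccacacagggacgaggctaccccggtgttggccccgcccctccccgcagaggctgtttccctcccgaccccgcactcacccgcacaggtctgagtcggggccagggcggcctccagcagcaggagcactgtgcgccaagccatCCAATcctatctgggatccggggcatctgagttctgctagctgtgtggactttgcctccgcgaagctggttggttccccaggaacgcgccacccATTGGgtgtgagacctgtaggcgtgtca

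Among all pseudogene peaks the central 300 bases held CCAAT in 34.0%, TGANTCA in 25.3% and CAGCTG in 29.7%, against 32.2%, 22.0% and 29.1% of all peaks. A match describes the letters and is not a binding site. The peaks had a median length of 511 bp and a median GC content of 48.4%, close to the 509 bp and 48.5% of peaks without an annotated gene and unlike the 872 bp and 56.8% of protein-coding peaks. Soft-masked repeats covered on average 13% of a pseudogene peak and 10.8% of any peak.

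Chromatin near pseudogenes changed in both directions in Taf4a sKO MuSCs. By the thresholds of the study's methods, that is more than 10 normalized counts on average and group means more than 1 log2 unit apart, 236 of the 2950 pseudogene peaks over this minimum were gained (8.0%, against 7.03% of all peaks) and 203 were lost (6.88%, against 5.36%). By limma at an adjusted p under 0.05, 857 were higher (29.1%, against 28.0% of all peaks) and 475 were lower (16.1%, against 13.9%). The share called was thus close to that of the whole table. The median log2 change was 0.12 over pseudogene peaks and 0.11 over all peaks, a distance of 0.013. The remaining 2 peaks were under the minimum and were not tested.

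**Figure D1:**
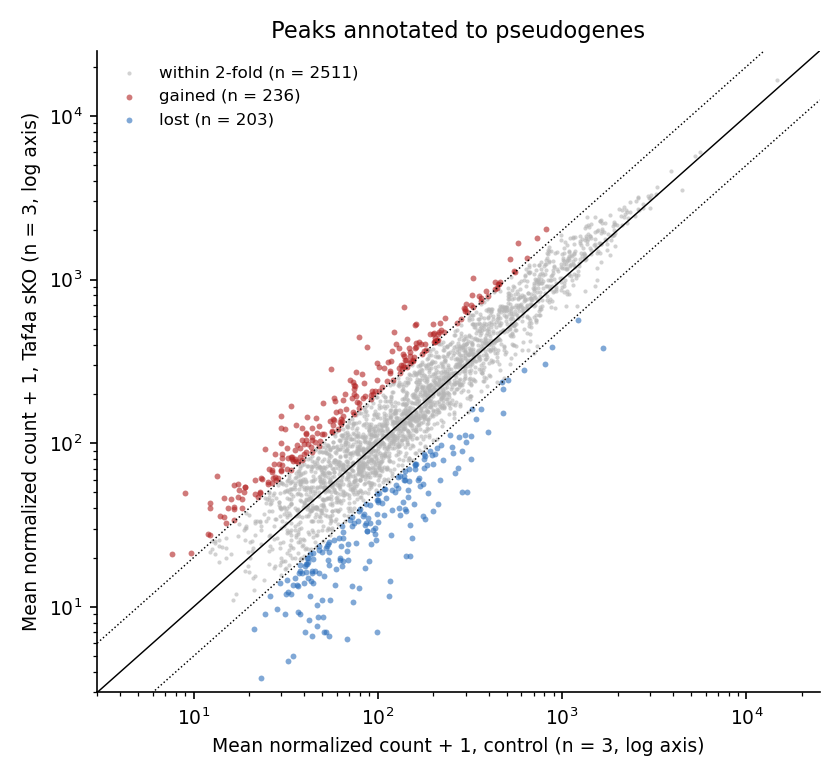
Mean normalized counts plus 1 of the 2950 tested pseudogene peaks in control (x axis) and Taf4a sKO MuSCs (y axis), both on log axes with n = 3 libraries. The solid line marks equal values and the dotted lines a ratio of 2 in either direction; the 236 gained peaks lie above and the 203 lost peaks below them.

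The direction of the balance depended on the scaling. Median-of-ratios size factors moved the median of all peaks from 0.11 to -0.01 on the log2 scale and that of pseudogene peaks from 0.12 to 0.01, so the distance between them was 0.013 again. With these factors 173 pseudogene peaks were gained (5.86%, against 5.19% of all peaks) and 238 lost (8.07%, against 6.52%). In the limma fit 769 were higher (26.1%, against 25.3%) and 686 lower (23.3%, against 22.5%). Of the altered peaks, 53.8% were gained under the authors' scaling, 42.1% with median-of-ratios factors, 38.2% with equal total signal and 48.6% with quantile normalization. A change of a single peak therefore carries an offset of about 0.11 that the choice of scaling can remove. It also depended on single libraries, since the median of all peaks was 0.052 without control replicate 2 and 0.175 without control replicate 3.

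The share of altered peaks was lowest near protein-coding genes and similar in the other classes. Peaks without an annotated gene were gained in 8.94% and lost in 6.77%, peaks of other gene types in 8.36% and 5.67%, lncRNA peaks in 8.78% and 5.36%, and protein-coding peaks in 3.00% and 2.69%. Pseudogene peaks had a median of 136 normalized counts, peaks without a gene 141 and protein-coding peaks 555, and in these 3 classes lost peaks were more frequent the lower the counts. At a mean of 10 to 50 normalized counts 9.73% of pseudogene peaks were gained and 87 of 483 lost, and of all peaks in the same range 10.7% were gained and 17.4% lost. Above 500 normalized counts 4.52% were gained and 0.821% lost, against 2.52% and 0.454% of all peaks, 0.708% and 0.222% of protein-coding peaks and 4.95% and 0.813% of peaks without a gene. Among these strong pseudogene peaks 225 of 487 were higher by limma (46.2%) and 35 lower (7.19%), against 28.7% and 4.90% of all peaks and 48.9% and 7.39% of peaks without a gene above the same level. With quantile normalization, which reduced the difference most of the scalings tried, 179 were higher and 108 lower. Under it 24.8% of all peaks at any level were higher and 25.1% lower. The shares of the other classes above 500 normalized counts under it are not given here.

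The share of all in-peak signal that fell on pseudogene peaks was 2.15%, 2.20% and 2.20% in control and 2.27%, 2.26% and 2.28% in Taf4a sKO libraries. Each Taf4a sKO library was above each control library (2.18% ± 0.029 and 2.27% ± 0.0087, SD, n = 3; two-sided exact permutation test, p = 0.1, which is as low as a design of 3 and 3 can go). Over the same libraries the share of peaks without a gene went from 29.9% ± 0.50 to 31.7% ± 0.18 and that of protein-coding peaks from 59.2% ± 0.61 to 56.9% ± 0.22 (SD, n = 3; exact permutation test, p = 0.1 for each). The values of the pseudogene peaks correlated between libraries of 1 genotype with Pearson's r of 0.970 to 0.983 and between genotypes with 0.885 to 0.905, across 2952 peaks on the log2 scale; peaks of a library are not independent replicates.

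Most of the peaks were named for processed pseudogenes. Of the 2590 peaks of this biotype, 2588 were tested, and 212 were gained (8.19%) and 180 lost (6.96%), while 774 were higher and 414 lower by limma. Unprocessed pseudogenes gave 133 peaks with 11 gained (8.27%) and 10 lost (7.52%), and transcribed processed pseudogenes 104 peaks with 10 gained (9.62%) and 8 lost (7.69%). These shares lay near the 7.03% and 5.36% of all peaks. The 40 peaks of transcribed unprocessed pseudogenes had a median of 412 normalized counts, and 27 of them overlapped the gene itself. Of these 40, 2 were gained (5.0%, against 7.03% of all peaks) and 1 lost (2.5%, against 5.36%). By limma 9 were higher (22.5%, against 28.0%) and 3 lower (7.5%, against 13.9%).

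Under the authors' scaling lower peaks outnumbered higher ones only among unitary pseudogenes. Of their 38 peaks, 6 were higher (15.8%, against 28.0% of all peaks) and 10 lower (26.3%, against 13.9%) by limma, with a median log2 change of -0.02, which was 0.13 below that of all peaks. With median-of-ratios factors the counts were 4 and 14, and with quantile normalization 3 and 13. Of all peaks 25.3% were higher and 22.5% lower with median-of-ratios factors, and 24.8% and 25.1% with quantile normalization. None of the 11 peaks of transcribed unitary and the 16 peaks of polymorphic pseudogenes was gained or lost. By limma 3 (27.3%) and 5 (31.25%) were higher and 2 (18.2%) and 1 (6.25%) lower. With quantile normalization 2 and 2 were higher and 5 and 4 lower, against the 24.8% higher and 25.1% lower of all peaks. The biotype called only pseudogene had 19 peaks with 0 gained (against 7.03% of all peaks) and 2 lost (10.5%, against 5.36%). Of these 19, 4 were higher and 4 lower by limma (21.1% each). The only T cell receptor segment, a joining segment, had 1 peak that did not pass the test.

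**Figure D2:**
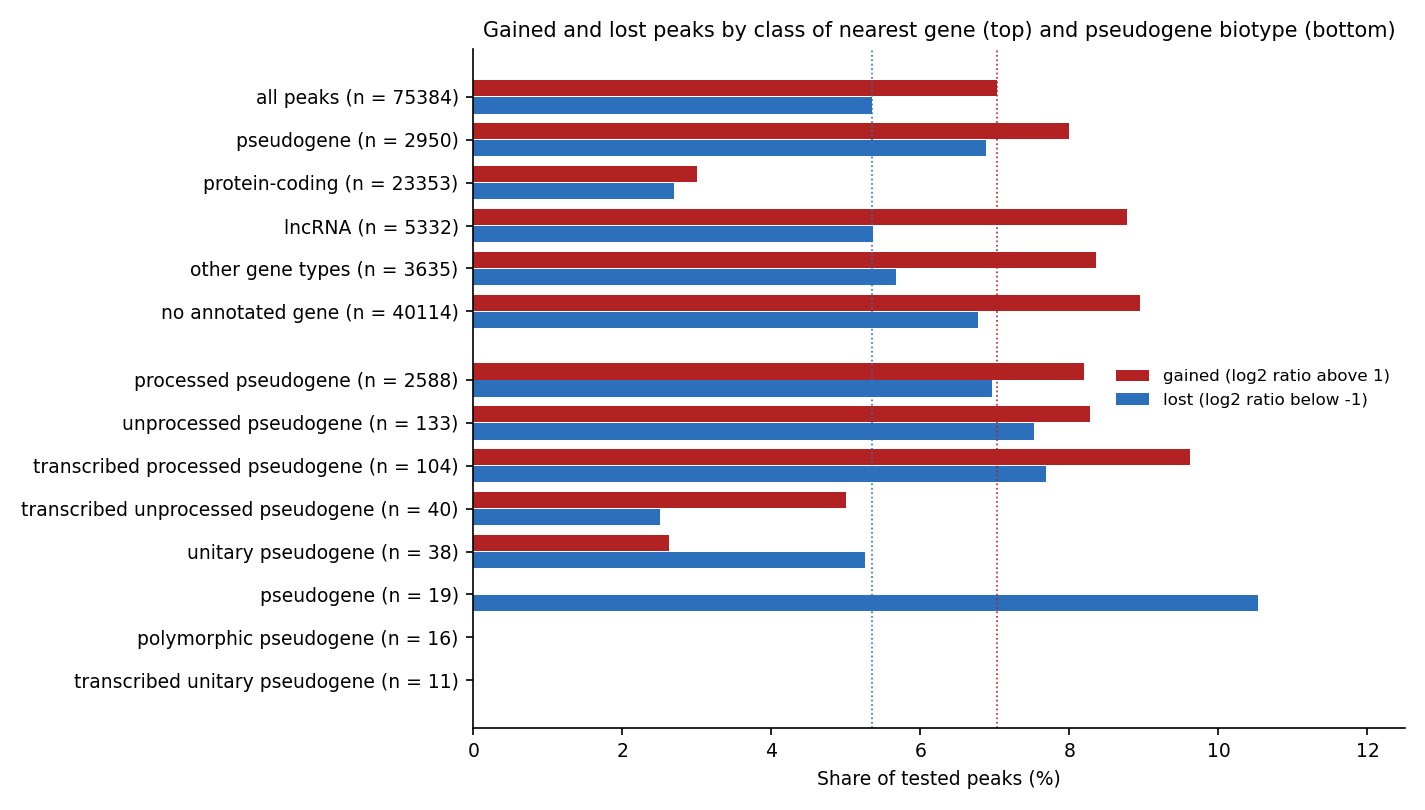
Share of tested peaks that were gained (red) or lost (blue) in Taf4a sKO MuSCs, by the class of the nearest gene (top) and by pseudogene biotype (bottom); n is the number of peaks tested and the dotted lines mark the shares of all peaks. Processed pseudogenes follow the whole set with 8.19% gained and 6.96% lost, and protein-coding peaks have the lowest shares of the classes in the top part with 3.00% and 2.69%.

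Within the biotypes, the peak with the smallest p in each direction showed how far single regions moved. At Magef1, annotated here as a transcribed processed pseudogene, a peak 9499 bp from the start had 40, 32 and 49 normalized counts in control and 168, 112 and 152 in Taf4a sKO libraries (limma log2 change 1.81, adjusted p = 8.4e-07). At Klrb1-ps1, a relative of the natural killer cell receptors, a peak over the pseudogene rose from 159 ± 37.8 to 388 ± 25.7 (SD, n = 3; adjusted p = 1.2e-06). A peak of Gm47417, an unprocessed pseudogene, rose from 161 ± 28.0 to 410 ± 21.7, and a peak over its body from 29.0 ± 6.1 to 123 ± 32.4 (SD, n = 3; adjusted p = 2.8e-07 and 7.9e-07).
On the other side, Gm5641, whose closest coding transcript is that of the RNA-binding protein Hnrnpa3, had a peak that fell from 144, 138 and 142 to 36, 41 and 35 normalized counts (adjusted p = 1.3e-07). A peak named for the unitary pseudogene ENSMUSG00000118428 fell from 477 ± 36.7 to 214 ± 18.4 (SD, n = 3, limma adjusted p = 7.5e-07). This peak lay 7702 bp from the pseudogene start and 8720 bp from the start of the interferon-induced GTPase gene Irgm2. The called changes at polymorphic pseudogenes were smaller. Mx2, an antiviral GTPase gene that is disabled in C57BL/6 mice, had a promoter peak 300 bp from its start with 1527, 1461 and 1805 in control and 2384, 2236 and 2199 in Taf4a sKO libraries (log2 change 0.51, adjusted p = 4.2e-04). Atp10d, a phospholipid transporter with a defective C57BL/6 allele, had a distal peak with 99.3 ± 9.7 and 70.7 ± 5.1 (SD, n = 3; log2 change -0.48, adjusted p = 0.046), and leaving out any 1 library put that p above the threshold, between 0.065 and 0.163. The other peaks that led their biotype were those of ENSMUSG00000118397 (unitary, log2 change 0.86), Gm10812 and Gm17420 (the biotype called only pseudogene, 0.51 and -1.15), Krt74 and Slc2a4rg-ps (transcribed unitary, 0.43 and -0.55) and 1810018F18Rik (transcribed unprocessed, -1.60).

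Distance to the start made little difference for pseudogenes. Protein-coding peaks were concentrated at the start, with 51.6% of them in the first kilobase, and pseudogene peaks were spread almost evenly, with 12.2% in the first kilobase and 8.16% to 11% in each of the following 9. Within 1000 bp of the start 31 of 361 pseudogene peaks were gained (8.59%) and 27 lost (7.48%). Between 1000 and 3000 bp 39 of 588 were gained (6.63%) and 40 lost (6.80%), and above 3000 bp 166 of 2001 were gained (8.30%) and 136 lost (6.80%). For protein-coding genes the shares rose with distance, from 0.805% gained and 0.905% lost within 1000 bp to 4.28% and 3.12% and then to 5.72% and 5.11%. The other classes varied less over the same bins. Gained were 6.37%, 9.35% and 9.53% of lncRNA peaks and 6.53%, 7.90% and 8.88% of peaks of other gene types. Lost were 4.47%, 5.21% and 5.77% and 4.63%, 5.44% and 5.95%. With borders at 500 and 5000 bp, 5.88% of the 221 nearest pseudogene peaks were gained and 7.69% lost.

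**Figure D3:**
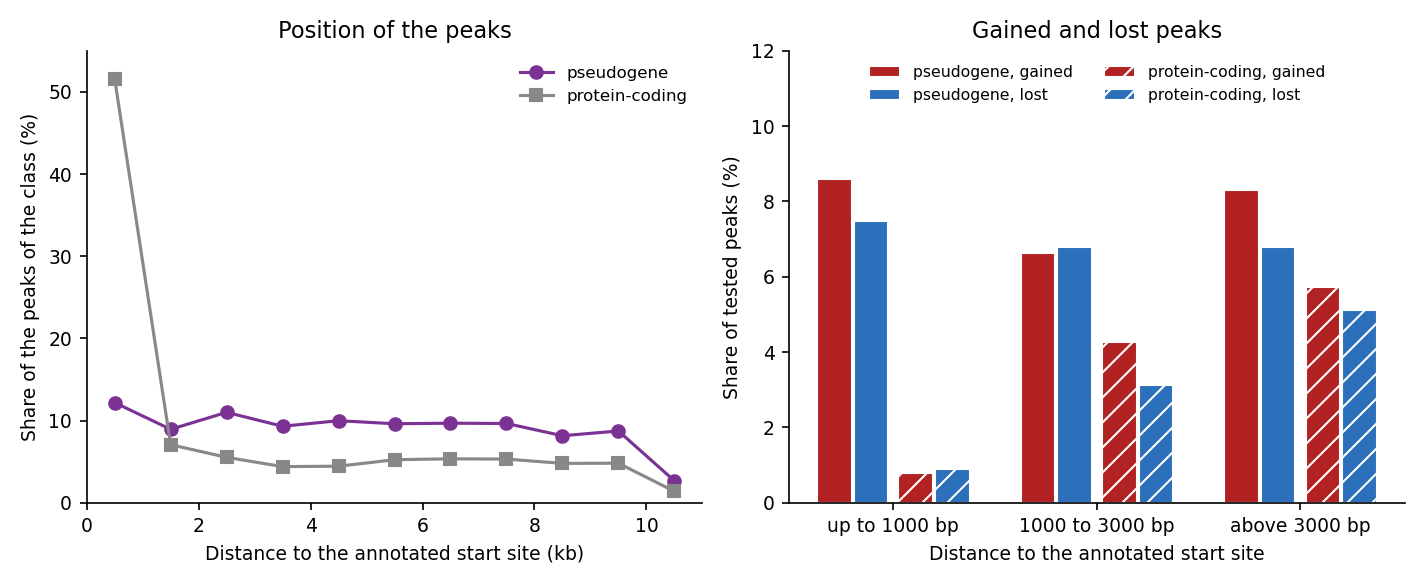
Left, share of pseudogene and protein-coding peaks in each kilobase of distance from the annotated start site; right, share of tested peaks gained or lost in Taf4a sKO MuSCs in 3 distance bins. Within 1000 bp of the start 8.59% of pseudogene peaks and 0.805% of protein-coding peaks were gained.

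The side of the start did not separate them either. Of the peaks upstream of the start, 1499 were tested, and 110 were gained (7.34%) and 103 lost (6.87%). Of the 1451 downstream, 126 were gained (8.68%) and 100 lost (6.89%). Of the peaks, 300 overlapped the pseudogene itself, and 21 of these were gained (7.0%) and 25 lost (8.33%). Of the 2650 tested beside it, 215 were gained (8.11%) and 178 lost (6.72%), and of all peaks 7.03% and 5.36%. By the GENCODE vM21 gene models 2009 peak centres lay outside protein-coding genes, 854 in an intron and 89 in an exon of one, and the shares gained were 8.27%, 7.27% and 8.99%. The shares lost were 7.02%, 6.80% and 4.49%. A protein-coding start lay within 1000 bp of 62 peaks, of which 3 were gained (4.84%, against 7.03% of all peaks) and 3 lost (4.84%, against 5.36%).

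These 6 altered peaks at protein-coding starts included a pair at Gm12188, a processed pseudogene inside the locus of Ifi47, an interferon-induced GTPase. The first, 77 bp from an Ifi47 start, rose from 69.3 ± 1.5 to 241 ± 35.1, and the second, 98 bp from one, rose from 75.3 ± 12.9 to 273 ± 63.8 (SD, n = 3; limma log2 changes 1.77 and 1.83, adjusted p = 4.5e-08 and 1.1e-07). A peak 225 bp from a start of Ppp6r1, a phosphatase subunit, carried the name of Gm6855 and fell from 474 ± 56.3 to 234 ± 19.9 (SD, n = 3; adjusted p = 5.2e-06). The peaks at Dglucy and Mgat4a were lost.

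The 6 gained peaks with the smallest p all belonged to processed pseudogenes, and none overlapped the pseudogene. The peak of Rpl5-ps1 (chr1:14858434-14859227, intergenic, 6241 bp from the start), a copy of a protein of the large ribosomal subunit, had 76, 61 and 96 normalized counts in control and 426, 465 and 436 in Taf4a sKO libraries. That is a limma log2 change of 2.52 (SE 0.17, adjusted p = 3.8e-10). Absence of overlap between the genotypes was a condition for choosing these 6 gained peaks and the 6 lost peaks described next. Near Gm37732 (chr1:164492859-164493734, intergenic) the peak went from 317, 307 and 356 to 1037, 1047 and 992 (log2 change 1.65, adjusted p = 1.2e-09), with a narrow spread within each genotype. Near Gm19040, in an intron of the autophagy gene Atg7, it rose from 519 ± 14.0 to 1337 ± 80.5 (SD, n = 3; adjusted p = 4.4e-09). The remaining 3 were near Gm29950, 16897 bp from the start of S100a11, with a log2 change of 1.55, near Gm45473, 16104 bp from the start of the transcription factor gene Tead1, with 1.3, and near Gm49480 in an exon of Espl1, which encodes separase, with 1.73.

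The 6 lost peaks with the smallest p included 2 that overlapped their pseudogene. The peak of Rpl6l (chr10:111126965-111127972, intergenic, 1618 bp from the start), a copy of another large-subunit protein, had 1575, 1556 and 1879 normalized counts in control and 366, 392 and 386 in Taf4a sKO libraries (limma log2 change -2.12, SE 0.11, adjusted p = 1.6e-11). It was the strongest of the 12 in control MuSCs and had the smallest p of all pseudogene peaks. At Gm13725 (chr6:29963486-29963997), a remnant related to the COP9 signalosome subunit gene Cops5, the peak overlapped the pseudogene and an annotated snRNA gene, Gm24536, and fell from 300, 270 and 339 to 56, 58 and 34 (log2 change -2.63, adjusted p = 3.1e-09). The snRNA spans bases 29963555 to 29963661, so its end is the first stretch of the sequence shown above. Over Gm2048, an unprocessed pseudogene on chromosome 14, the peak fell from 319 ± 20.5 to 78.7 ± 10.2 (SD, n = 3; adjusted p = 4.4e-09). Near Gm48922, whose closest coding transcript is that of the chromatin remodelling subunit Arid1a, it fell from 197 ± 27.7 to 37.3 ± 2.5 (SD, n = 3; adjusted p = 5.1e-09). Near Gm12948 it fell from 106, 113 and 75 to 8, 4 and 6 (log2 change -3.84), and near Gm12363, in an intron of Zfp292, from 263 ± 13.3 to 64.3 ± 13.3 (SD, n = 3). In 12 refits of the limma test, with other pseudocounts, scalings, the replicate block or 1 library left out, each of these 12 peaks kept its direction and an adjusted p under 0.05.

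**Figure D4:**
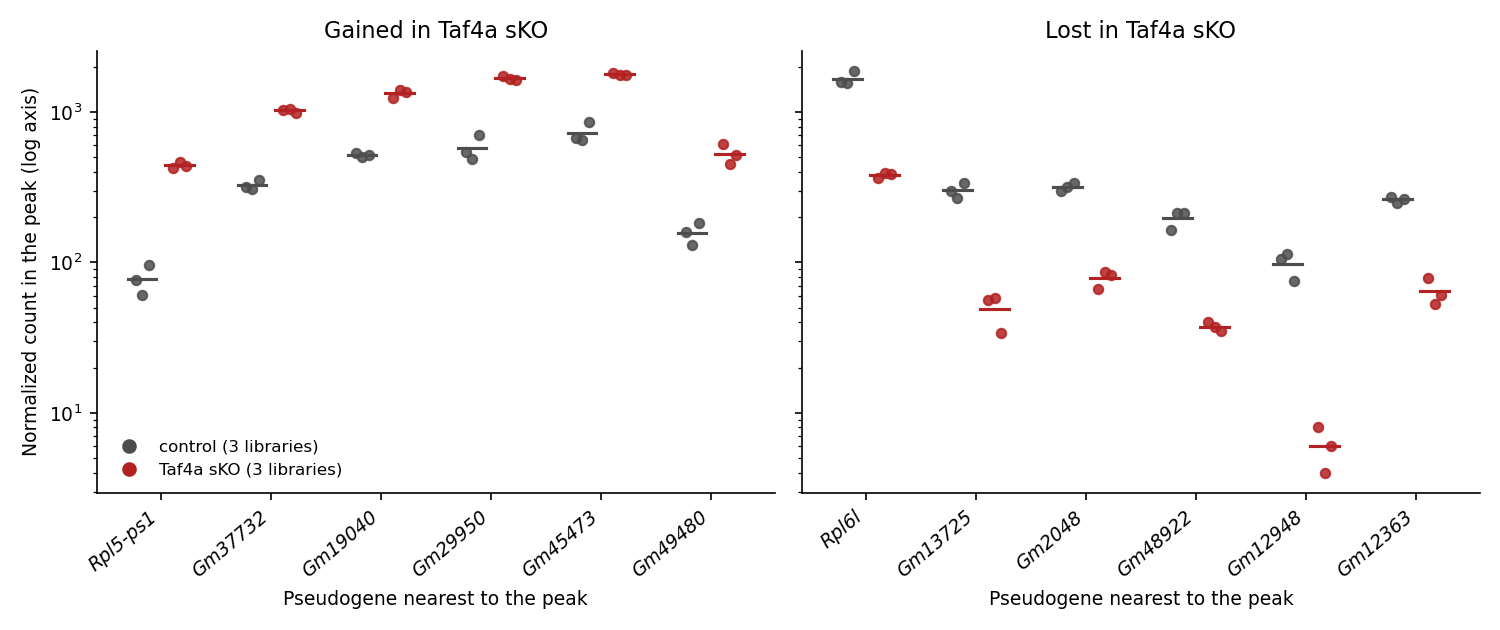
Normalized counts (log axis) in each of the 3 control and 3 Taf4a sKO libraries for the 6 gained (left) and 6 lost (right) pseudogene peaks with the smallest p; points are libraries and bars the group means. The peaks were chosen to have no overlap between genotypes, and values go from 61 to 96 in control and 426 to 465 in Taf4a sKO at Rpl5-ps1 and from 1556 to 1879 and 366 to 392 at Rpl6l.

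By symbol, 114 peaks belonged to 65 ribosomal protein pseudogenes, counting symbols that begin with Rpl or Rps and carry -ps, which leaves out Rpl6l. Of these, 46 were higher (40.4%, against 28.0% of all peaks) and 12 lower (10.5%, against 13.9%), 14 were gained (12.3%, against 7.03%) and 7 lost (6.14%, against 5.36%), and the median log2 change was 0.31, or 0.20 above that of all peaks. Under the other scalings 42 to 45 were higher and 17 to 23 lower, where 23.4% to 25.3% of all peaks were higher and 22.5% to 25.8% lower. Besides Rpl5-ps1, peaks near Rpl10-ps2 rose from 54.7 to 285 normalized counts on average, near Rps15a-ps2 from 35.0 to 129 and near Rps15a-ps3 from 447 to 937 (limma adjusted p = 1.6e-06, 3.4e-07 and 1.5e-06). On the other side, peaks near Rpl31-ps23 fell from 43.7 to 13 and near Rpl23a-ps4 from 67.7 to 23.3 normalized counts on average (adjusted p = 3.1e-04 and 3.2e-04), and all 3 peaks of Rpl6l fell. A wider group was formed by sequence, with or without such a symbol. Matching each pseudogene to its closest protein-coding transcript, at a cover of at least 50% of the pseudogene, placed 1624 of the 1981 pseudogenes, with a median identity of 89.99%. Of these, 514 (31.7%) matched a ribosomal protein, and of their 781 peaks 239 were higher (30.6%), 124 lower (15.9%), 62 gained (7.94%) and 55 lost (7.04%).

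Gapdh, the glycolytic enzyme, was the closest coding gene of most pseudogenes for a single gene, with 43 pseudogenes and 69 peaks, followed by Rps2 with 34 pseudogenes, Rpl7a with 31 and Rpl17 and Rps6 with 30 each. With the 20 pseudogenes closest to Gm10358, a Gapdh-like coding gene, there were 106 peaks, of which 33 were higher (31.1%, against 28.0% of all peaks) and 19 lower (17.9%, against 13.9%), 8 gained (7.55%, against 7.03%) and 9 lost (8.49%, against 5.36%). The 41 peaks near copies of the cyclophilin gene Ppia included 14 higher (34.1%) and 4 lower (9.76%), 2 gained (4.88%) and 3 lost (7.32%), and the 26 near copies of the H3f3 histone genes 8 higher (30.8%) and 4 lower (15.4%), 1 gained and 1 lost (3.85% each). The 36 peaks near copies of Hmgb1, a chromatin-binding protein, included 17 higher (47.2%, against 28.0% of all peaks) and 4 lower (11.1%, against 13.9%), 7 gained (19.4%, against 7.03%) and 1 lost (2.78%, against 5.36%). Under the other scalings 15 to 16 were higher, against 23.4% to 25.3% of all peaks. The 36 peaks near copies of heterogeneous nuclear ribonucleoproteins, which bind pre-mRNA, included 9 higher (25%, against 28.0%) and 10 lower (27.8%, against 13.9%), 0 gained (against 7.03%) and 7 lost (19.4%, against 5.36%). Under the other scalings 6 to 7 were lost, against 5.70% to 6.96% of all peaks. Near-identical copies did not stand out: a peak lay over the body of 7.39% of the 203 pseudogenes at least 98% identical to a coding transcript, of 10.2% of the 609 at 90% to 98% and of 9.36% of the 812 below. Since the authors discarded multi-mapping reads, signal over such copies may be undercounted.

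The other families defined by symbol had at most 10 peaks each. For reference, 28.0% of all peaks were higher, 13.9% lower, 7.03% gained and 5.36% lost. Of 10 peaks at the histone-related pseudogenes H2afy3, H2af-ps and H3f3a-ps2, 5 were higher and 0 lower, and 2 were gained. A peak over H2afy3 had 111, 149 and 126 normalized counts in control and 379, 355 and 401 in Taf4a sKO libraries, and one 2389 bp from its start rose from 118 ± 30.0 to 362 ± 32.3 (SD, n = 3; limma log2 changes 1.56 and 1.63, adjusted p = 5.6e-08 and 1.3e-07). Of 9 peaks of olfactory receptor pseudogenes 2 were higher, of which that of Olfr269-ps1 rose from 83, 69 and 67 to 218, 208 and 169 (adjusted p = 1.2e-06). Of 6 peaks at H2 histocompatibility pseudogenes 2 were higher, with H2-Pb going from 429, 400 and 531 to 595, 632 and 720 (adjusted p = 0.0028). Under each other scaling 1 was higher, where 23.4% to 25.3% of all peaks were. Of 3 heat shock peaks 1 was higher and of 7 zinc finger peaks 1, at Zfp125, was lower. The 4 vomeronasal receptor, 3 cytochrome P450, 3 glycolytic enzyme and 1 ubiquitin peaks did not pass the test, and no peak belonged to a Mup pseudogene.

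The highest pseudogene peak (chr17:39848238-39848794) overlapped the unnamed pseudogene ENSMUSG00000118642 and began 35 bases past Rn18s-rs5, an 18S rRNA-related sequence, inside an rRNA gene of the GENCODE annotation. Its normalized counts were 15635, 12252 and 15803 in control and 18613, 16036 and 14830 in Taf4a sKO libraries, and the groups overlapped (limma log2 change 0.18, adjusted p = 0.21). Without it the share of signal on pseudogene peaks was 2.15% ± 0.032 and 2.23% ± 0.011 (SD, n = 3). The peak over Gm28438 (chr1:24612476-24613579) was the third highest, and its 1104 bases were 99.8% identical to mitochondrial DNA over their full length. It held 5474, 4809 and 5498 and 6224, 5461 and 5344 normalized counts (adjusted p = 0.41), although the authors removed mitochondrial reads. A second full-length match, near Gm13340 with 98.8% identity, had 62.7 ± 13.7 and 68.7 ± 14.2 (SD, n = 3). Neither passed the test, and both are copies of mitochondrial DNA in the nuclear genome. Among the highest 5 were also peaks near Gm16433 and Gm45299, whose changes did not pass the test (log2 changes 0.11 and 0.25, adjusted p = 0.46 and 0.069; the second passed it with each of the other scalings), and Gm47829, which fell from 4448 ± 694 to 3548 ± 247 (SD, n = 3; log2 change -0.32, adjusted p = 0.022).

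Start-site peaks differed between biotypes. Of the 361 peaks within 1000 bp of the start, 231 overlapped the pseudogene, and their median was 185 normalized counts. For the 20 of transcribed unprocessed pseudogenes it was 625, with a median GC content of 59.1% and a CpG ratio of observed to expected of 0.62, and for the 159 of processed pseudogenes 150, 51.5% and 0.33. The peak at H2-K2, a class I histocompatibility pseudogene, had 1971, 1795 and 2169 in control and 2222, 2114 and 2130 in Taf4a sKO libraries (limma adjusted p = 0.34). Those at Pisd-ps2 with 2598 ± 276 and 2651 ± 175, at Zfp939 with 1615 ± 104 and 1659 ± 172 and at 4632415L05Rik with 1920 ± 217 and 1869 ± 93.4 (SD, n = 3) also did not pass it. The peaks over Gm5711, a copy of the cyclophilin gene Ppia, and over ENSMUSG00000118426, 20125 bp from the start of the myogenic gene Pax3, rose, with log2 changes of 0.58 and 0.39 (adjusted p = 1.4e-04 and 0.0033). At Gm14869 the peak fell from 1546 ± 102 to 1183 ± 70.2 (SD, n = 3; log2 change -0.39, adjusted p = 0.0045). At Gm17271, in an intron of Arhgap39, the peak rose from 832 ± 89.7 to 1522 ± 74.4 (SD, n = 3; log2 change 0.87, adjusted p = 1.4e-06).

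Called peaks that share a pseudogene moved the same way at most but not all pseudogenes. A single tested peak was annotated to 1313 pseudogenes, 2 or more to the other 668. In 226 of these at least 2 peaks passed the limma test, all higher in 125 (55.3%), all lower in 49 (21.7%) and in both directions in 52 (23.0%). Among the 1207 protein-coding genes with at least 2 called peaks the shares were 58.9%, 19.2% and 21.9%, and among the 554 lncRNA genes 61.9%, 16.1% and 22.0%. At least 2 gained peaks were found at 28 pseudogenes and at least 2 lost peaks at 17, and a gained beside a lost peak at 2. The matching counts of the other classes are not given here.

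Of the 5 pseudogenes with 6 peaks each, Rpl9-ps3 and Rpl36a-ps2 had 4 higher peaks each and 0 lower. Of all peaks 28.0% were higher and 13.9% lower. The Rpl9-ps3 peaks lay between Sowaha and Sept8, and the strongest had 320, 342 and 494 normalized counts in control and 842, 798 and 902 in Taf4a sKO libraries (limma log2 change 1.16, adjusted p = 2.5e-06). The Rpl36a-ps2 peaks lay in an intron of Ddah1, an enzyme that degrades inhibitors of nitric oxide synthesis. Of these, the peak 8630 bp from the start rose from 99, 99 and 124 to 269, 301 and 294 (log2 change 1.42, adjusted p = 2.8e-07). The Gm11726 peaks lay between Tha1 and Socs3, a feedback inhibitor of cytokine signalling, and 3 of 6 were higher, among them one 45701 bp from the start of Socs3 with 1455, 1410 and 1670 in control and 2774, 2114 and 2338 in Taf4a sKO libraries (log2 change 0.67, adjusted p = 5.1e-05). At Gm11737, in an intron of Cyth1, 1 of 6 passed the test, from 35, 26 and 27 to 72, 71 and 99. The peaks of this set that lay 149 and 760 bp from a Cyth1 start did not pass it. Gm12423 had 2 higher peaks, with log2 changes of 0.81 and 0.59, and 1 lower with -0.97 (adjusted p = 0.0051, 0.027 and 0.015). With each of the other scalings a further pair of its peaks passed the test as lower, with log2 changes of -0.29 and -0.26 under the authors' scaling.

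**Figure D5:**
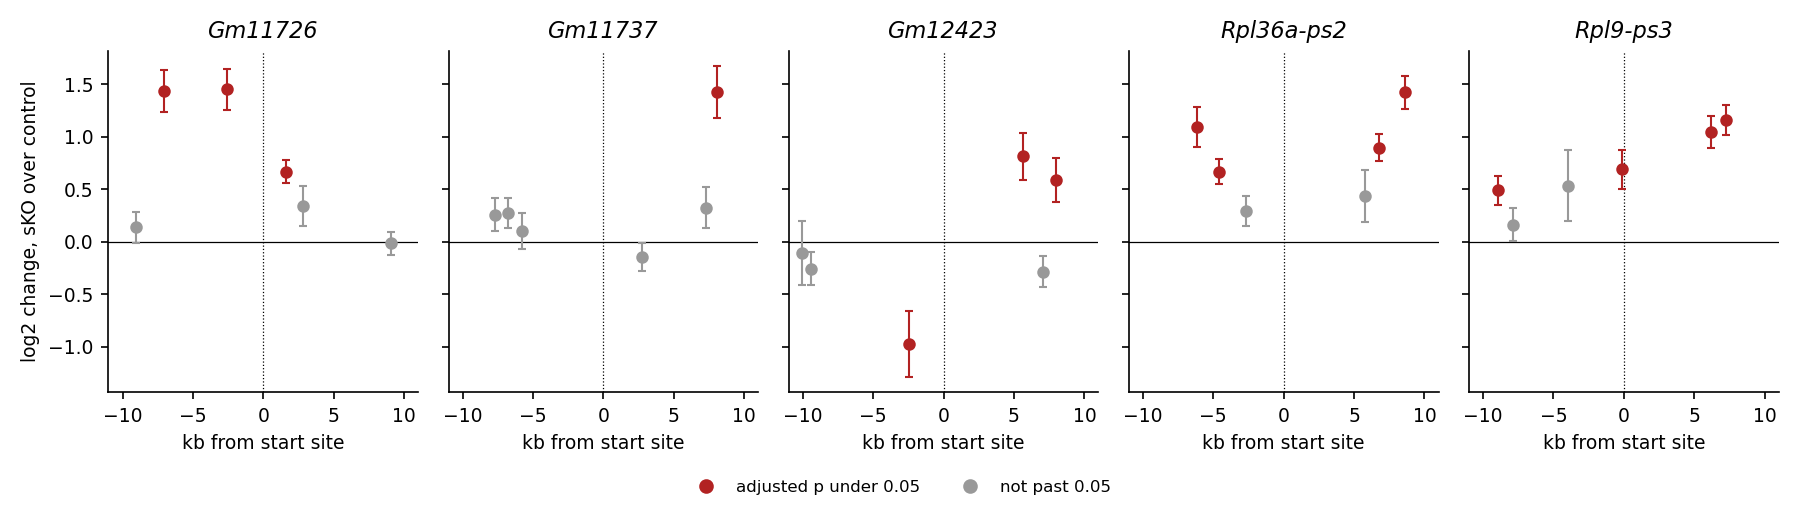
Log2 change (Taf4a sKO over control, limma, bars are the SE) of the 6 peaks of each of the 5 pseudogenes with most peaks, against their distance from the pseudogene start in kb, negative upstream. Red points have an adjusted p under 0.05; all of these are above 0 at Rpl36a-ps2 and Rpl9-ps3, while Gm12423 has 2 above and 1 below.

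By chromosome the number of pseudogene peaks went from 2 on Y and 77 on 19 to 237 on 1, and chromosome X, where they were 6.37% of all peaks, had the highest share apart from Y. On Y 41.7% of the 12 tested peaks of any class were lost. The study used males and females, and the sample titles give no sex. A different mix of sexes in the groups cannot be told apart from genotype on Y, and it was not tested. Both pseudogene peaks there belonged to Mid1-ps1 and fell, one from 1307, 1111 and 1256 to 519, 504 and 681 and the other from 250, 216 and 207 to 69, 86 and 79 normalized counts (limma log2 changes -1.12 and -1.51, adjusted p = 3.3e-07 and 3.1e-07). Among the autosomes the share gained went from 3.45% on chromosome 18 to 14.9% on chromosome 6, where 7.03% and 8.23% of all peaks of the same chromosome were gained. The share lost went from 2.87% on chromosome 11 to 10.4% on chromosome 19, against 4.47% and 5.39% of all their peaks. The chromosomes were not tested against each other.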

How the data were processed

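ATAC-seq of 3 control and 3 Taf4a sKO libraries was used. According to the methods, the authors trimmed reads with Trimmomatic 0.39, aligned them with STAR 2.7.11b to mm10 with Ensembl release 101, removed duplicates with Picard 3.1.1 together with spliced, multi-mapping, ribosomal and mitochondrial reads, called peaks per sample with MACS, unified them, counted reads with featureCounts and annotated the nearest gene start within 10000 bp. A Tn5 shift is not described. The deposited values are scores: counts normalized for depth by the authors and rounded to whole numbers. Sums over all peaks differ between libraries under this scaling.

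Since these are not raw counts, limma 3.58.1 (R 4.3.3; trend, robust) was fitted to log2(value + 1) over all 75384 peaks with a mean above 10, with Benjamini-Hochberg adjustment and a threshold of 0.05. Gained and lost peaks had a log2 ratio of group means (pseudocount 1) beyond 1, with no test. Fold changes on this scale understate changes of low peaks. The fit was also tried on simulated data, and no result of that is given here.

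Gene names, features and sequences came from GENCODE vM21 and RefSeq GRCm38.p6, where 2892 of the 2952 peaks had their gene. Closest coding transcripts were found with BLAST 2.17.0 (e-value 1e-10; overlapping genes left out). Named peaks were, in each direction, the 6 smallest p among altered peaks without overlap; the 5 highest; the smallest p per biotype and direction; all peaks of the 5 pseudogenes with most peaks; families by symbol. The groups by value, side, body, start site, closest transcript and chromosome, and the peaks named from them, were chosen after values were seen. Members and lists were chosen with earlier results of these data known. Precision is limited by 3 libraries per group, and depth before scaling was not used. Some single items are not reported here.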

Additional observations from a re-analysis of the deposited data

How the results depend on the processing

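With 3 libraries per genotype, low peaks are measured least well. Across pseudocounts, minimum means, scalings, the replicate block, libraries left out and exclusion of peaks near protein-coding starts, the 4 counts of called or altered pseudogene peaks stayed within 1.5 times their value except as follows. Lower peaks by limma rose from 475 to 735 with equal total signal, which was 24.9% of pseudogene peaks against 25.8% of all peaks. With quantile normalization the shares lower were 23.8% and 25.1%. Both reversed the order under the authors' scaling (16.1% against 13.9%). At a log2 ratio of 1.5 there were 52 gained and 90 lost peaks, at a 1.5-fold ratio 643 and 397, and at a mean above 50 normalized counts 116 lost. The median log2 change of 0.12 became 0.0056 with median-of-ratios factors, -0.029 with equal total signal and -0.0016 with quantile normalization, while that of all peaks became -0.0072, -0.042 and -0.024. Without control replicate 2 the medians of pseudogene and all peaks were 0.078 and 0.052, and without control replicate 3 they were 0.195 and 0.175. With bins at 500 and 5000 bp the nearest peaks were gained in 5.88%. Leaving out 1 library gave 637 to 1080 higher and 374 to 447 lower peaks. The 1080 were reached without control replicate 3, where 36.6% of pseudogene peaks were higher against 37.8% of all peaks. That reversed the order of the main fit (29.1% against 28.0%), which leaving out any other library kept.

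Same-numbered replicates did not deviate together (r of 0.11, -0.12 and -0.03 over all peaks), so these values gave no sign of pairing by number. With so few libraries per genotype, they cannot exclude a pairing, for example by litter. The study used littermates as controls. With the replicate block 905 pseudogene peaks were higher and 492 lower, against 857 and 475 without it.

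Of the 60 peaks named as most altered, highest, leading a biotype or belonging to the 5 pseudogenes with most peaks, 41 passed the threshold. Peaks named from families, start sites or chromosomes were not followed one by one. In 720 refits 663 kept direction and call, 19 lost the call, 24 gained it and 14 changed sign, all of these at peaks not past the threshold. Signs changed at Gm16433 (-0.0033 with median-of-ratios factors, -0.039 with equal total signal, -0.00063 to 0.226 with single libraries left out), Gm28438 (-0.0037 and -0.039 with the same scalings), 2 peaks of Gm11726 (-0.013 with equal total signal and -0.046 with quantile normalization; -0.116 to 0.068 with single libraries left out), Gm11737 (-0.0069, -0.042 and -0.0033 with the 3 scalings) and Gm12423 (0.046 with quantile normalization). The causes were not tested.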
